A study of Danio rerio with 56 samples.

Results

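The mother by father interaction asks whether feeding benzo[a]pyrene (BaP) to 1 parent changed the RNA of the embryos by the same amount whether or not the other parent had also been fed BaP. It was computed on 16 libraries of whole zebrafish embryos at 10 hours post fertilisation (hpf), which are 16 of the 24 RNA libraries and of the 56 samples in the series. The design was a cross of 4 kinds with 4 libraries each. Control embryos had parents that both ate acetone-treated flakes. In the mother cross BaP was fed to the mothers alone, and in the father cross to the fathers alone. Embryos of the both-parents cross came from the group whose label says only BaP at 10 hpf, read as both parents BaP-fed because each of the other 3 crosses has a label of its own. All parents were 5D strain fish, aged 120 days at the start. They ate BaP at 25 µg per g of fish, equal to 1250 µg per g of food, or acetone flakes, for 21 days, and the crosses were set up afterwards. The labels name no altered genotype. The labels do not say which tank, clutch or number of embryos a library came from, so each p-value measures only the spread between these libraries, which may be technical.

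BaP is a polycyclic aromatic hydrocarbon formed by incomplete combustion. In vertebrates it binds the aryl hydrocarbon receptor, and its metabolites form adducts on DNA. Zebrafish embryos at this age are at the end of gastrulation, after the RNA that the mother stored in the egg has largely given way to transcription from the embryo's own genome, so that a mother can act on them through the egg and a father mainly through sperm. An interaction is measured as the both-parents cross minus the mother cross minus the father cross plus the control, on the log2 scale. A value of 0 means that the changes seen with each parent alone add up, a positive value means that the both-parents cross lies above that sum, and a negative value that it lies below it.

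The libraries held 26010776 to 38130629 estimated counts, and 30894 transcripts had enough counts to be tested. Identifiers in the files are Ensembl transcript identifiers, and 0 of 57192 could be paired with a gene name here, so transcripts are described by identifier, level, length and pattern, and no gene groups are described. Isoforms of 1 gene share reads that the counting tool divides by estimate, so a low value of 1 transcript can be a different division of reads within its gene. Embryo libraries are bulk samples, in which fewer cells of a type and less RNA per cell cannot be told apart. Among the 16 libraries, replicate 2 of the both-parents cross stood apart. Its median correlation with the libraries of its own cross was 0.918, the lowest of the 16, and egg-enriched transcripts took 1.17% of its counts against 0.444% to 0.687% in the control, mother and father crosses. Replicate 4 of the father cross had the next lowest correlation, 0.925. Counts of calls, and of the patterns among them, are therefore also given without replicate 2 of the both-parents cross.

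Transcripts called with a positive interaction were mostly lowest in the father cross and highest in the both-parents cross. At an adjusted p under 0.05 (quasi-likelihood test in edgeR, p-values adjusted after Benjamini and Hochberg over all transcripts tested), 254 transcripts had a positive interaction, 0.822% of those tested, and 24 had a negative one, 0.0777% of those tested. At an unadjusted p under 0.05 the counts were 2219 and 1431. Positive calls also had the larger values by median. The median interaction of the positive calls was 1.08 on the log2 scale, with 80% of them between 0.77 and 1.53, and that of the negative calls was -0.54, with 80% between -0.74 and -0.39. Over all transcripts tested the median was 0.01, with quartiles of -0.24 and 0.40. All 278 calls had the same sign when the interaction was taken as a difference of mean CPM (counts scaled to library size with TMM factors) instead of log2 values. So did 30010 of the 30894 transcripts tested, so this agreement is not particular to the calls. Positive calls had a median level of 12.7 CPM and negative calls one of 106 CPM, so their sizes are not compared at a like level. The smallest absolute interactions among them were 0.41 and 0.36. Without replicate 2 of the both-parents cross there were 388 positive and 34 negative calls, of which 263 were among the 278. Leaving out replicate 3 of the father cross gave 287 and 43, and leaving out any other single library gave 85 to 162 positive and 4 to 25 negative calls. DESeq2 called 729 positive and 331 negative, a less one-sided split.

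The order of the 4 crosses was nearly the same in all positive calls. In 224 of 254, or 88.2%, the father cross was lowest, followed by the mother cross, the control and the both-parents cross. In 16 the control and the mother cross changed places, in 13 the control was above the both-parents cross, and in 1 the mother cross was lowest. Over all transcripts tested the first order was held by 8.02%. Calls of either sign were selected on a contrast of these same 4 means, which favours some orders. Shares over all transcripts are therefore a background and not a test. The father cross was thus lowest in 253 of 254 positive calls and the both-parents cross highest in 241. Over all 30894 transcripts tested these counts were 9589 and 9782. Relative to the mean of the other 3 crosses, the median positive call was -0.69 in the father cross, 0.49 in the both-parents cross, 0.21 in the control and -0.01 in the mother cross (log2). The father cross lay farthest from the other 3 in 235 positive calls, the both-parents cross in 17, the control in 2 and the mother cross in 0. Farthest here means the largest difference in mean log2 CPM from the mean of the other 3 crosses. Over all transcripts tested those shares were 34.6%, 29.3%, 20.5% and 15.6%. Described without replicate 2 of the both-parents cross, the same 254 calls had the main order in 229, the father cross lowest in 253 and farthest in 232. In the separate fit without that library, the father cross was farthest in 341 of the 388 positive calls.

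Negative calls mostly showed the opposite order, with smaller steps at a higher median level than that of the positive calls. In 16 of 24, or 66.7%, the both-parents cross was lowest, followed by the control, the mother cross and the father cross, and 5.92% of all transcripts tested had this order. The father cross was highest in 21 and the mother cross in 3, while the both-parents cross was lowest in 20 and the control in 4. Over all 30894 transcripts tested these counts were 9113, 5756, 8349 and 7377. The median negative call was 0.25 above the other 3 crosses in the father cross and -0.25 in the both-parents cross (log2), with -0.11 in the control and 0.08 in the mother cross. Of the 24 negative calls, 13 had a mean above 100 CPM. Over all 1989 tested transcripts of that level, the medians were 0.12 in the father cross and -0.13 in the both-parents cross. They were 0.01 in the control and 0.01 in the mother cross. The cross farthest from the others was the both-parents cross in 11 negative calls, the father cross in 10, the control in 2 and the mother cross in 1. Without replicate 2 of the both-parents cross these counts were 9, 11, 3 and 1, and the main order was held by 15.

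The calls are also described library by library, in the same 16 libraries on which they were selected. Median deviations of the 254 positive calls from their 16-library mean were -0.60, -0.54, -0.36 and -0.54 in the 4 libraries of the father cross (log2). In the both-parents cross they were 0.46, 0.10, 0.46 and 0.42, the low value being that of replicate 2. Control libraries lay between 0.07 and 0.25, and libraries of the mother cross between -0.10 and 0.09, on both sides of 0. Over all transcripts tested, the median deviations of the 16 libraries ran from 0.01 to 0.04. For the 24 negative calls all 4 libraries of the father cross were above 0, from 0.12 to 0.24, and all 4 of the both-parents cross were below 0, from -0.25 to -0.13. The heat map of called transcripts shows these deviations for each transcript.

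**Figure D1:**
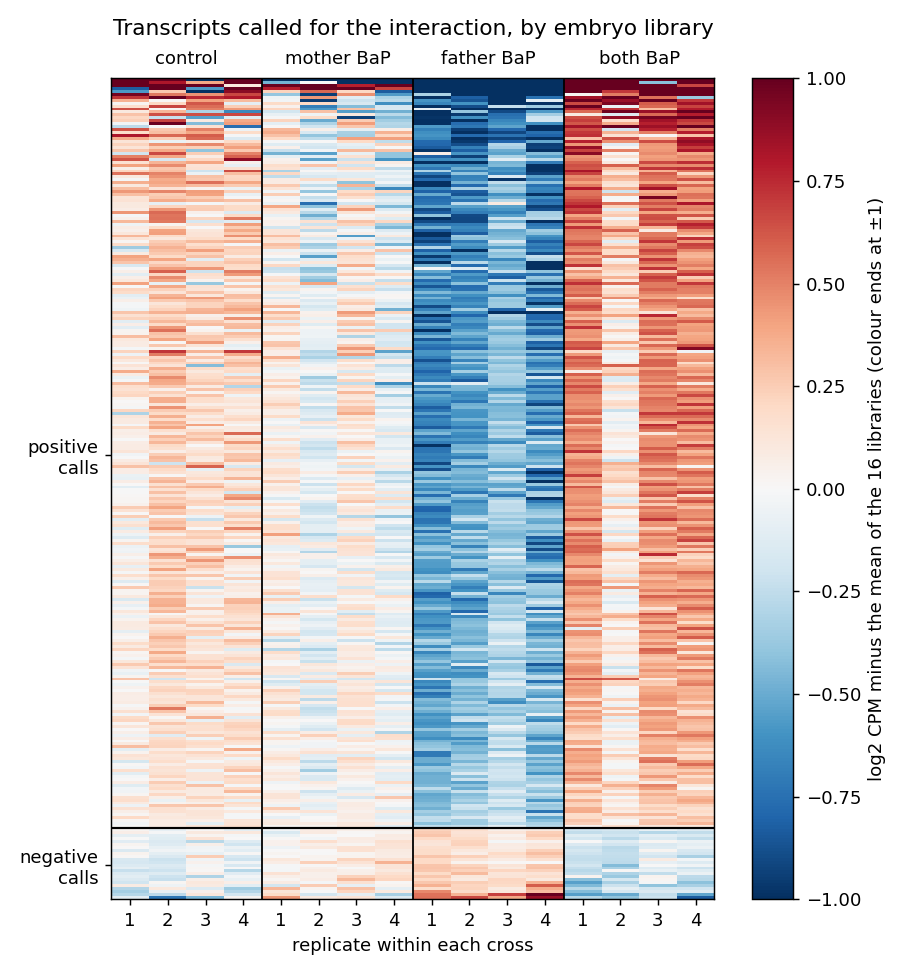
Log2 CPM of the 278 called transcripts (rows, sorted by interaction value, positive above the line and negative below it) in the 16 embryo libraries (columns, 4 per cross), as the difference from the transcript's mean over the 16 libraries. Blue fills the father cross and red the both-parents cross in the 254 positive calls, with replicate 2 of the both-parents cross paler than its other 3 libraries, and the 24 negative calls show the reverse in weaker colours.

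Separation of whole crosses was counted next, as a description of the called transcripts. All 4 libraries of the father cross were below the other 12 in 189 of 254 positive calls, against 1.46% of all transcripts tested. All 4 of the both-parents cross were above the other 12 in 29 positive calls, against 0.431% of all. This count depended on replicate 2 of that cross, without which the remaining 3 libraries were above all others in 146 positive calls. A separation of 3 libraries is easier to reach than one of 4. Its share over all transcripts was not counted, so 146 cannot be set against 0.431%. The counts of the other 3 separations given here were the same without that library. In the negative calls, the father cross was above all other libraries in 4 of 24 (0.366% of all), and the both-parents cross was below them in 5 of 24 (0.359% of all). By means, the mother cross was below the control in 238 of 254 positive calls, against 15286 of the 30894 transcripts tested. Few calls had both single-parent crosses fully apart. All 8 control and both-parents libraries were above all 8 single-parent libraries in 12 of 254 positive calls, against 23 of the 30894 transcripts tested. They were below them in 1 of 24 negative calls, against 6 of the 30894.

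Each cross was then tested against the mean of the other 3 in the same fit. These contrasts use the same libraries as the interaction, so they describe which cross stood apart and are not independent of it. In the father cross, 226 transcripts (0.732%) were higher and 622 (2.01%) lower than in the other 3 crosses. In the both-parents cross, 144 (0.466%) were higher and 60 (0.194%) lower. In edgeR 0 transcripts (0.0%) passed in either direction for the control, with 984 higher and 888 lower at an unadjusted p under 0.05 and 19 and 70 calls in DESeq2. The mother cross also had 0 calls (0.0%) in either direction in edgeR, with 513 and 479 at an unadjusted p under 0.05 and 8 and 25 calls in DESeq2. Most of these counts moved when single libraries were left out. Those of the father cross were 27 higher and 205 lower without its replicate 1, 27 and 246 without its replicate 4, and 386 and 770 without replicate 2 of the both-parents cross. The lower count of the father cross was also moved by its replicate 2, to 372 without it, and stayed within 1.5 times of 622 in 13 of 16 such fits. Those of the both-parents cross fell to 2 higher and 0 lower without its replicate 4, and were 239 and 31 without its replicate 2. The higher count of the father cross moved by over 1.5 times in 12 of 16 fits that left out 1 library, all but those without replicates 3 and 4 of the control, replicate 3 of the father cross and replicate 3 of the both-parents cross. The higher count of the both-parents cross did so in 13, all but those without replicates 3 and 4 of the father cross and replicate 1 of the mother cross, and its lower count in 14, all but those without replicate 3 of the father cross and replicate 1 of the mother cross.

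By sign, the effect of the father's diet changed direction with the mother's diet in nearly all calls. The calls were selected on the difference between these 2 effects, which favours opposite signs. No p-value is given for either effect alone, so the counts below are a description. Beside control mothers, the median change of positive calls with a BaP-fed father was -0.67 (father cross minus control, log2). Beside BaP-fed mothers it was 0.37 (both-parents cross minus mother cross). The medians over all transcripts tested were 0.01 and 0.02. The father's effect was below 0 beside control mothers and above 0 beside BaP-fed mothers in 253 of 254 positive calls, and the reverse held in 24 of 24 negative calls, with medians of 0.26 and -0.26. Over all 30894 transcripts tested these crossings of the fitted effects were seen in 8911 and 8190. Taken from mean log2 CPM, they were seen in 254 and 24 calls with all 16 libraries. Without replicate 2 of the both-parents cross they were seen in 253 and 24.

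Read from the mother's side, the same values gave a smaller change beside control fathers. The median positive call was -0.15 with a BaP-fed mother beside a control father (mother cross minus control, log2) and 0.90 beside a BaP-fed father (both-parents cross minus father cross). The mother cross was below the control in 238 of 254 positive calls, against 15286 of the 30894 transcripts tested. In negative calls those medians were 0.13 and -0.38. The both-parents cross was above the control in 241 of 254 positive calls and in 4 of 24 negative calls, against 16545 of the 30894 transcripts tested. It was nevertheless closer to the control than the father cross was in most calls: the both-parents cross was the farther one in 7 of 254 positive and 5 of 24 negative calls, against 15433 of the 30894 transcripts tested.

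**Figure D2:**
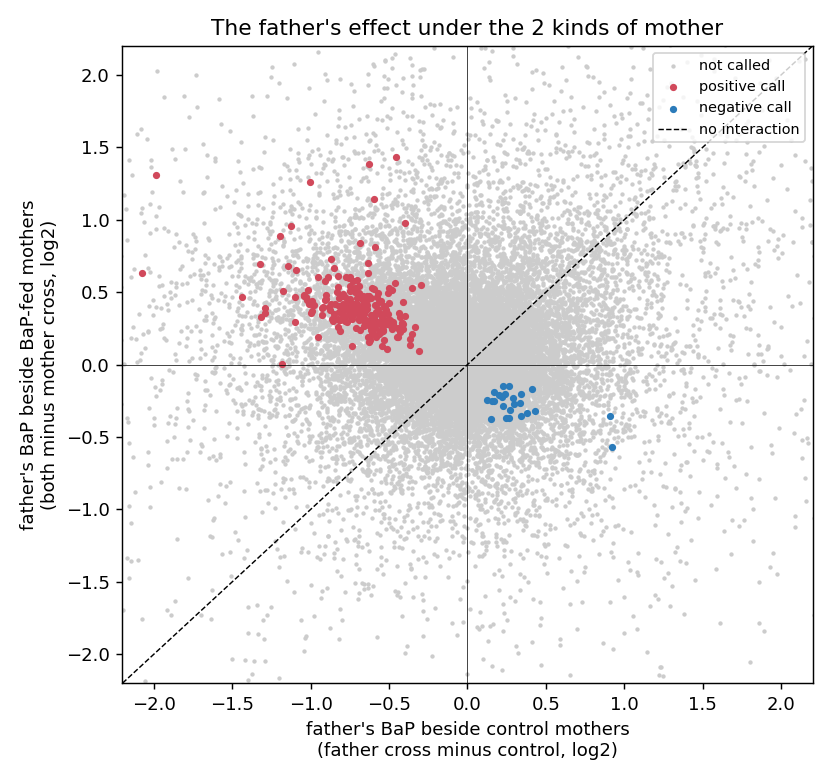
Effect of a BaP-fed father beside control mothers (x axis, father cross minus control, log2) against that beside BaP-fed mothers (y axis, both-parents cross minus mother cross, log2) for each transcript tested. Transcripts without interaction would lie on the dashed line, positive calls (red) lie at the upper left and negative calls (blue) at the lower right, and 5 positive calls and 971 uncalled transcripts lie beyond the axes at ±2.2.

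Among positive calls of at least 2 CPM, ENSDART00000180271.1 had the largest interaction. It is 8615 bases long. Its CPM was 8.99, 11.2, 9.22 and 9.49 in the control libraries, 5.28, 7.35, 5.01 and 4.36 in the mother cross, 0.973, 3.07, 1.92 and 3.22 in the father cross and 9.77, 12.2, 8.01 and 4.18 in the both-parents cross. Both single-parent crosses were below the control, the father cross was below all other libraries, and the both-parents libraries lay around the control except for replicate 4, which was at the level of the mother cross. Group means were 9.73 ± 1.00, 5.50 ± 1.29, 2.30 ± 1.06 and 8.53 ± 3.36 CPM (SD, n = 4). Had the log2 changes of the single-parent crosses added, the both-parents cross would have been at 1.30 CPM. Its interaction was 2.71 ± 0.48 (log2, SE; edgeR adjusted p = 0.0179). With the trend of level on transcript length removed, it was 2.34 and no longer called (edgeR adjusted p = 0.057), and it was 2.44 and called when that correction was centred (0.042).

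The most abundant positive call per length was ENSDART00000182735.1, at a mean of 98.3 TPM (the deposited level per length) and 2410 bases long. It had 77.8, 86.5, 89.1 and 92.1 CPM in the control libraries, 84.8, 72.8, 89.1 and 72.5 in the mother cross, 49.7, 52.6, 65.1 and 46.4 in the father cross and 108, 82.6, 106 and 112 in the both-parents cross. Control and mother cross overlapped, the father cross was below every other library, and the both-parents cross was above the control except for replicate 2. The means were 86.4 ± 6.13, 79.8 ± 8.47, 53.4 ± 8.15 and 102 ± 13.3 CPM (SD, n = 4), and 49.4 CPM would be reached by added log2 changes. The interaction was 1.05 ± 0.17 (log2, SE; edgeR adjusted p = 0.0102).

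Among negative calls, ENSDART00000027213.8 had the largest value and is 1844 bases long. Control libraries had 5.06, 3.29, 3.97 and 5.57 CPM, the mother cross 7.45, 5.84, 5.98 and 4.93, the father cross 8.01, 8.67, 7.16 and 10.1 and the both-parents cross 4.47, 4.13, 4.69 and 3.05. The father cross was above control and both-parents libraries without overlap and met the mother cross at its lower end, and the both-parents cross overlapped the control. Its interaction was -1.49 ± 0.27 (log2, SE; edgeR adjusted p = 0.0204), and 11.5 CPM would be reached by added log2 changes against the 4.08 ± 0.728 measured (SD, n = 4). This call was lost without replicate 2 of the mother cross (edgeR adjusted p = 0.0504).

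ENSDART00000018255.8 was the most abundant negative call per length, at 651 TPM, and is 1560 bases long. Its CPM was 616, 555, 629 and 526 in control libraries, 625, 632, 617 and 665 in the mother cross, 659.9, 712, 642 and 659 in the father cross and 547, 529.7, 549 and 565 in the both-parents cross. The both-parents libraries were all below those of the single-parent crosses and within the range of the control. The interaction was small, -0.41 ± 0.09 (log2, SE; edgeR adjusted p = 0.0382), and was lost in 13 of 16 fits that left out 1 library (edgeR adjusted p from 0.0315 to 0.0995). It held only without replicates 1 or 3 of the control or replicate 3 of the father cross. It was also lost with a replicate block (edgeR adjusted p = 0.0861), with no filter, with library totals alone, with the length trend removed (0.0964) or centred (0.133) and in whole-count transcripts alone.

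Further transcripts, 1 for each sign and each cross lying farthest from the others, show the patterns of means behind the same sign. Farthest is a ranking of means and not a test. Neither the control nor the mother cross had an edgeR call against the other crosses. The typical positive pattern, a low father cross, was seen in ENSDART00000189361.1, which had the smallest p of that kind and is 3495 bases long. Its means were 10.6 ± 1.17 CPM in the control, 9.55 ± 0.900 in the mother cross, 5.31 ± 0.497 in the father cross and 12.9 ± 1.22 in the both-parents cross (SD, n = 4). The 4 father libraries, at 4.62 to 5.73 CPM, were below all others, whose lowest value was 8.29. The interaction was 1.43 ± 0.17 (log2, SE; edgeR adjusted p = 0.0052).

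A high both-parents cross was the pattern of ENSDART00000121994.3, 4563 bases long. The both-parents libraries had 14.7, 10.9, 15.04 and 11.1 CPM, all above the other 12, which ranged from 5.32 to 10.4. The means of control, mother and father crosses were 9.06 ± 0.998, 7.38 ± 1.66 and 6.02 ± 0.791 CPM (SD, n = 4), and the interaction was 1.40 ± 0.24 (log2, SE; edgeR adjusted p = 0.0157), lost with the length trend removed (0.0512). In ENSDART00000142024.2, 918 bases long, both single-parent crosses were low, and the control was the farthest cross by mean log2 CPM. In the fitted contrasts the control was 0.40 above and the father cross -0.40 from the mean of the other 3, which does not separate them. Control and both-parents libraries ran from 5.997 to 8.03 CPM and single-parent libraries from 3.73 to 5.91, with no overlap between the 8 and the 8. Its interaction was 1.12 ± 0.21 (log2, SE; edgeR adjusted p = 0.0256). The call was lost in 6 fits, without replicate 2 of the control, replicate 2 of the mother cross, replicates 1 or 4 of the father cross, or replicates 1 or 3 of the both-parents cross, with an edgeR adjusted p of up to 0.068, and with the length trend removed (0.0578).

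Negative calls with different farthest crosses differed less between libraries. ENSDART00000004622.9 had a high father cross, at 165 ± 10.5 CPM against 134 ± 7.77 in the control, 144 ± 7.09 in the mother cross and 120 ± 6.60 in the both-parents cross (SD, n = 4). Replicate 3 of the father cross, at 149 CPM, was within the range of the mother cross and the other 3, at 168 to 171, were above all other libraries. ENSDART00000123990.4 had a low both-parents cross, with 93.8 to 101 CPM in its 4 libraries and at least 103 in all other 12. Its father cross was high, at 126 ± 8.10 CPM (SD, n = 4). In the fitted contrasts the both-parents cross was -0.25 and the father cross 0.25 from the mean of the other 3 (log2), which does not separate them. In ENSDART00000063665.7 the mother cross was farthest, at 42.2 ± 3.50 CPM against 34.5 ± 2.77 in the control, 38.2 ± 2.52 in the father cross and 32.5 ± 1.84 in the both-parents cross (SD, n = 4). Its fitted contrasts were 0.27 for the mother cross and -0.23 for the both-parents cross (log2), and neither passed in edgeR. ENSDART00000062303.5, with the control farthest, had no count in eggs and 49.9 ± 2.87 CPM in the control, 60.7 ± 3.41 and 61.1 ± 1.99 in the single-parent crosses and 51.6 ± 6.14 in the both-parents cross (SD, n = 4). Its fitted contrasts were -0.21 for the control and 0.18 for the father cross (log2), and neither passed in edgeR. Interactions of these 4 transcripts were -0.57 ± 0.09, -0.44 ± 0.08, -0.53 ± 0.11 and -0.53 ± 0.11 (log2, SE), with edgeR adjusted p from 0.0111 to 0.0454. The first held when any library was left out and was lost after removal of the length trend (edgeR adjusted p = 0.0512). The call for ENSDART00000123990.4 was lost without replicate 2 of the control, replicate 4 of the mother cross or replicate 1 of the both-parents cross (edgeR adjusted p up to 0.056), with library totals alone, and with the length trend removed (0.0512) or centred (0.0508). The calls for ENSDART00000063665.7 and ENSDART00000062303.5 were lost in 14 and 13 of 16 such fits (up to 0.113 and 0.11), the former held only without replicate 3 of the control or replicate 1 of the mother cross, and the latter only without replicate 3 of the control, the father cross or the both-parents cross. Both were also lost with upper-quartile factors, no filter, library totals alone and either length correction, the former with a replicate block and the latter in whole-count transcripts alone.

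**Figure D3:**
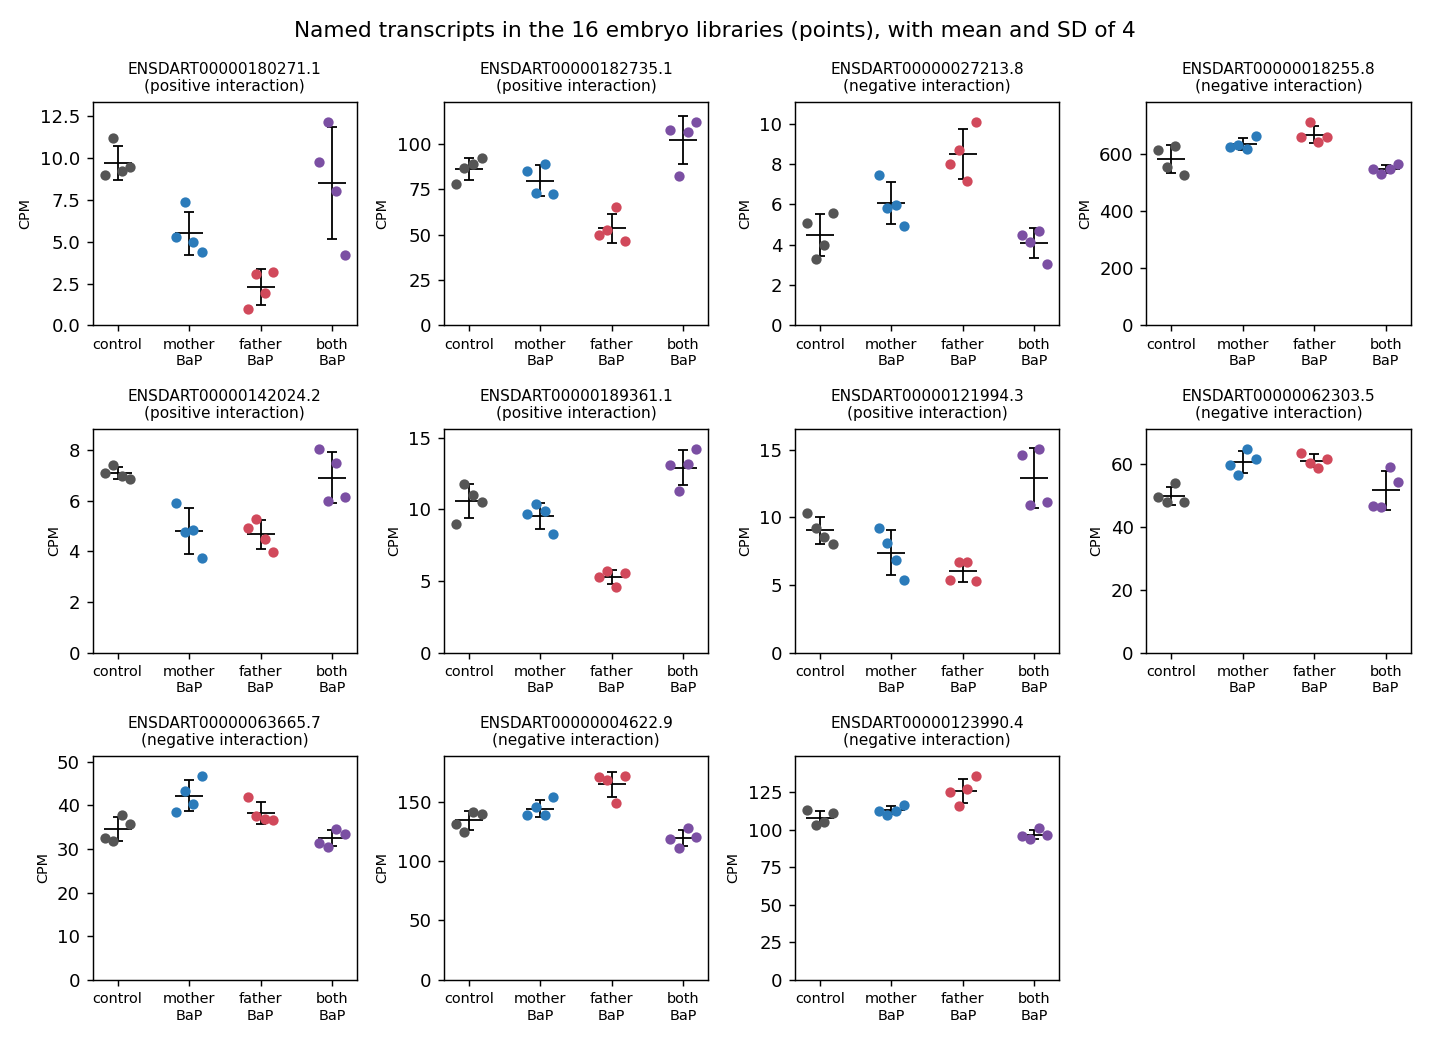
CPM of the 11 transcripts named by rule in each of the 16 embryo libraries (points, 4 per cross), with the mean and SD of each cross as black lines. Each axis starts at 0, and the father cross has the lowest mean in the 5 transcripts with a positive interaction and the highest mean in 5 of the 6 with a negative one.

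In 4 positive calls no read was counted in any of the 4 father libraries. They were singled out after their values were seen, all are low in level, and their fitted interactions depend on the constant added to counts and are not bounds. Calls without a count in a whole cross numbered 1 for the mother cross and 0 each for the control and the both-parents cross. The share of all transcripts tested without a count in the father cross was not counted. A floor of 3 counts over the father cross gives lower bounds for counting error alone, not for the spread between libraries. Estimated counts of these 4 transcripts were not whole numbers in every library. A 0 can therefore also be a different division of shared reads, which the floor does not cover. ENSDART00000187324.1 had 1.72, 1.72, 2.61 and 0.828 CPM in control libraries, 1.84, 2.99, 1.36 and 2.45 in the mother cross and 2.06, 2.84, 2.55 and 1.25 in the both-parents cross, at least 73.9-fold, 90.9-fold and 97.0-fold higher over each group than the father floor (edgeR adjusted p of the interaction = 0.0052). It was present in all 12 other libraries, and its call held when any single library was left out.

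ENSDART00000158160.2 was also counted in all 12 libraries outside the father cross, from 0.292 to 3.68 CPM, and its summed level was at least 47.2-fold higher in the control, 76.3-fold in the mother cross and 78.5-fold in the both-parents cross (edgeR adjusted p = 0.0216). Its call was lost without replicate 2 of the control, replicate 2 of the mother cross or replicate 1 of either cross with BaP-fed fathers, with a replicate block (edgeR adjusted p = 0.0705) and with the length trend removed (0.0512). ENSDART00000166902.2 was not counted in the mother cross either. It had 1.19, 0.957, 0 and 1.47 CPM in the control and 1.54, 0.726, 0.356 and 0.569 in the both-parents cross, so that it was counted in 7 of 8 libraries whose parents shared a diet and in none of the 8 others (edgeR adjusted p = 0.0289). ENSDART00000184842.1 had 45 counts in the control, 5 in the mother cross, 0 in the father cross and 46 in the both-parents cross, at least 14.3-fold and 15.7-fold higher than the father floor in control and both-parents crosses (edgeR adjusted p = 0.0360). Calls for the latter pair were lost in 10 and 13 of 16 fits that left out 1 library. The former held without replicate 3 of the control, replicates 1 or 3 of the mother cross, replicates 3 or 4 of the father cross or replicate 2 of the both-parents cross, and the latter without replicate 3 of the father cross or replicates 2 or 3 of the both-parents cross. Both were also lost with a replicate block (0.0812 and 0.0636) and with the length trend removed (0.0527 and 0.058).

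Length, level and stage of the calls are described next. Level and stage come in part from the same embryo libraries, and a call needs enough counts: 239 of 254 positive and 24 of 24 negative calls had at least 2 CPM, against 18554 of 30894 tested, so values of tested transcripts of at least 2 CPM are given too. Positive calls had a median length of 4803 bases, against 2067.5 in negative calls, 1971 over all transcripts tested and 2198.5 over those of at least 2 CPM. Among positive calls 44.5% were longer than 5000 bases and 10.6% shorter than 1000, against 11.8% and 22.3% of all tested and 13.6% and 15.1% of those of at least 2 CPM. In negative calls 4.17% were longer than 5000 bases. Per length the median positive call had 6.50 TPM and the median negative call 84.6 TPM, against 3.41 TPM over all tested and 9.63 TPM over those of at least 2 CPM, which puts positive calls above the first and below the second. Estimated counts were within 1e-06 of a whole number in all 16 libraries in 1.57% of positive calls, 20.8% of negative calls, 17.8% of all tested and 19.5% of those of at least 2 CPM.

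Length went with the interaction well beyond the calls. Among transcripts of at least 2 CPM the median interaction was -0.19 (log2) in those of up to 500 bases, -0.09 from 1000 to 2000 bases, 0.12 from 5000 to 8000 bases and 0.24 above 8000 bases. In the class from 5000 to 8000 bases, 4.58% of 1964 transcripts were positive calls, the largest share of any length class. Above 8000 bases it was 3.72% of 565. Of all 18554 tested transcripts of at least 2 CPM, 239 were positive calls. The number of counts per transcript went with the interaction in the opposite direction. The median interaction was 0.27 below 1 CPM and -0.19 above 100 CPM, where 13.5% of 1989 transcripts were above 0. Both trends were present together. At 2 to 10 CPM the median was 0.00 up to 2000 bases and 0.41 above 5000 bases, and at 100 CPM or more it was -0.25 and -0.04. These medians describe transcripts, which are not independent replicates.

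**Figure D4:**
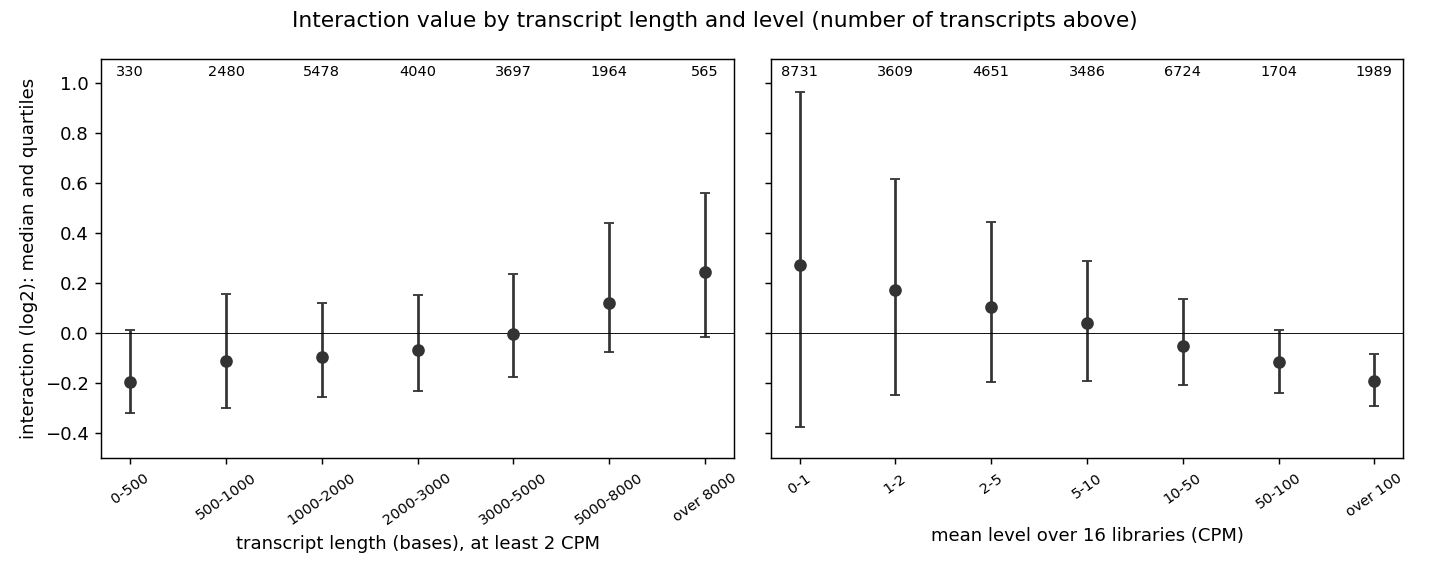
Median (points) and quartiles (bars) of the interaction (log2) by transcript length in bases, for transcripts of at least 2 CPM (left), and by mean CPM over the 16 libraries, for all transcripts tested (right), with the number of transcripts above each bar. The median climbs from -0.19 to 0.24 with length and drops from 0.27 to -0.19 with CPM.

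Removing a smooth trend of level on length from each library before the fit lowered the number of positive calls. There were 120 positive and 22 negative calls when each library was centred on its median trend, an alternative added after seeing the data, and 128 of the 278 calls were among them. Without the centring, which also rescales the libraries, there were 22 positive and 10 negative, 25 of them among the 278, and the median of all transcripts moved from 0.01 to -0.09. In transcripts with whole counts alone, 2 positive and 2 negative calls were made among 5481 tested.

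Most calls in both directions were transcripts of higher level in embryos than in eggs. Of positive calls 91.3%, and of negative calls 87.5%, had a higher mean log2 CPM in the 16 embryo libraries than in the 8 egg libraries of control and BaP-fed mothers. Over all tested it was 57.0%, and 58.7% of those of at least 2 CPM. The median embryo level was 2.41 (log2) above the egg level in positive calls, 1.56 in negative calls, 0.40 over all tested and 0.43 over those of at least 2 CPM. Transcripts enriched in eggs by at least 3 on the log2 scale, with at least 2 CPM in eggs, made up 0 positive and 0 negative calls. They were 7.24% of all tested and 3.41% of those of at least 2 CPM. Without the floor in eggs there was 1 such positive call, ENSDART00000184842.1, at -3.04 (embryo minus egg, log2) and 1.38 CPM in eggs. Embryo-enriched ones, which need 2 CPM by definition, made up 20.9% and 25.0% of the calls, 10.9% of all tested and 17.7% of those of at least 2 CPM.

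Eggs of BaP-fed mothers gave a readout from libraries the interaction did not use. Of the 254 positive calls 236 were tested in eggs, and the median change with BaP was -0.11 (BaP eggs minus control eggs, log2), against -0.00 over the 24846 transcripts tested in both stages. It was above 0 in 31.8% of positive calls, in 52.4% of the 21 negative calls tested and in 49.4% of all. At an unadjusted p under 0.05 were 3.81% of the positive calls and 3.68% of all. Positive calls had a greater median length than all transcripts tested, and no egg background of like length was computed.

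Some measures of whole libraries showed the same contrast between the father and both-parents crosses. The exact permutation tests below compare control and both-parents libraries with single-parent libraries and ask whether all 16 are exchangeable. They do not test the father cross against the both-parents cross. The number of transcripts with a count was 37219.5 ± 232 in the control, 37023.5 ± 620 in the mother cross, 36413 ± 223 in the father cross and 37663 ± 67.8 in the both-parents cross (SD, n = 4). Libraries of the father cross, at 36133 to 36659, and those of the both-parents cross, at 37583 to 37747, did not overlap. The mean of control and both-parents libraries was 723 transcripts above that of the single-parent libraries (two-sided exact permutation p = 0.0073, adjusted over 7 measures 0.0315). The share of counts that fell on transcripts of more than 5000 bases was 16.05% ± 0.373 in the control, 15.9% ± 0.405 in the mother cross, 14.6% ± 0.298 in the father cross and 16.4% ± 0.474 in the both-parents cross (SD, n = 4), a difference of 0.938 percentage points (two-sided exact permutation p = 0.00901, adjusted 0.0315). Both calls were lost in 8 of 16 tests that left out 1 library, namely replicate 2 of the control, replicate 4 of the mother cross, each of the father cross, or replicates 2 or 3 of the both-parents cross, with adjusted exact permutation p of up to 0.0702.

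The other 5 measures did not pass after adjustment. The 100 most abundant transcripts took 21.1%, 20.9%, 21.7% and 20.3% of the counts in the same order (exact permutation p = 0.0497, adjusted 0.116). Total counts differed by 282240, less than their SD in any cross (exact permutation p = 0.864, adjusted 0.974). Egg-enriched transcripts took 0.464% ± 0.017, 0.493% ± 0.048, 0.589% ± 0.0748 and 0.666% ± 0.338 (SD, n = 4; adjusted exact permutation p = 0.974), the spread of the last group being due to its replicate 2. Embryo-enriched transcripts and transcripts with whole counts differed by -0.0384 and -0.0103 percentage points (exact permutation p = 0.924 and 0.948). TMM scaling factors ran from 0.917 to 0.984 in the father cross and from 1.04 to 1.07 in the both-parents cross, without overlap, and with library totals alone in place of these factors there were 497 positive and 6 negative calls around a median of 0.16 over all transcripts. Whether the depth of detection or the share of long transcripts plays a part in single calls was not tested beyond the alternatives given.

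**Figure D5:**
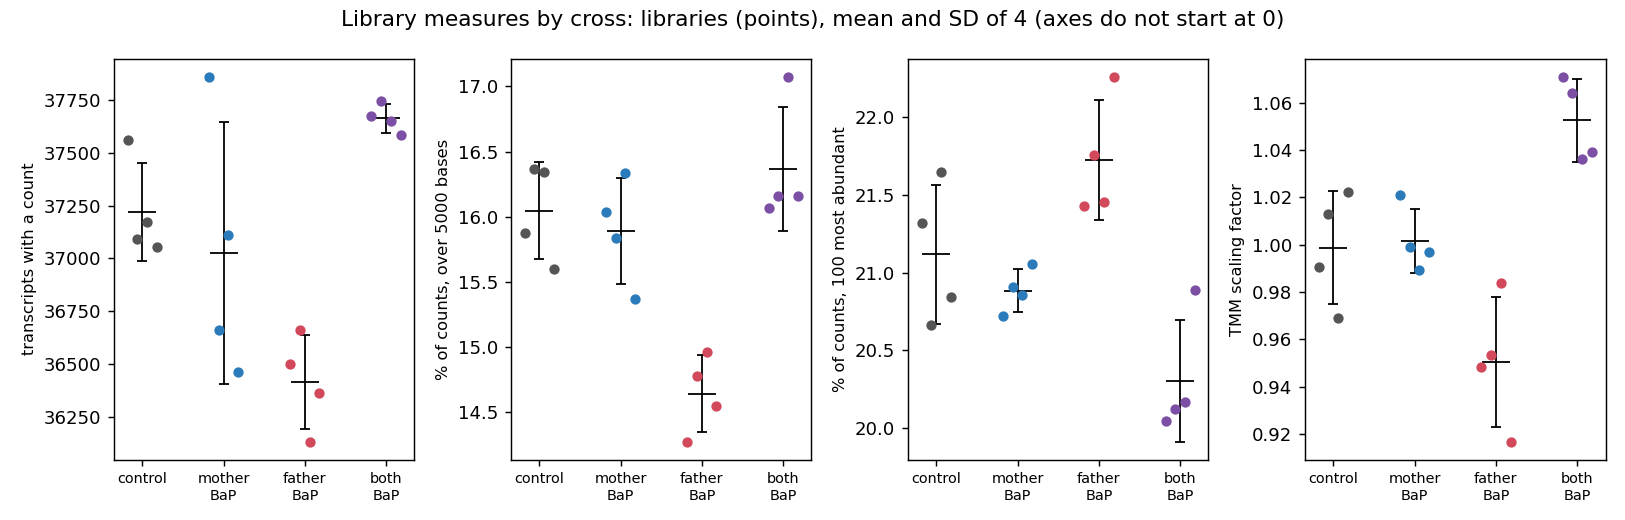
Number of transcripts with a count, percent of counts in transcripts longer than 5000 bases, percent of counts in the 100 most abundant transcripts and TMM scaling factor for each of the 16 embryo libraries (points), with the mean and SD of 4 per cross (axes do not start at 0). The father and both-parents crosses lie at opposite ends of all 4 measures, with 14.6% and 16.4% of counts in long transcripts.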

How the data were processed

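Total RNA of 10 hpf embryos was depleted of ribosomal RNA and sequenced as read pairs, per the labels' protocols. The submitters' processing notes name DESeq2, FastQC and Salmon as tools and GRCz11 as build, with no versions. Per the file headers, each deposited table holds the length, the TPM and an estimated (expected) count of every transcript. Lengths and deposited TPM served only to describe transcripts.

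The deposited estimated counts, rounded to whole numbers, were tested in edgeR 4.0.16 with R 4.3.3: TMM factors, filterByExpr by cross, glmQLFit with robust=TRUE, glmQLFTest and 1 mean per cross over the 16 embryo libraries, Benjamini-Hochberg over 30894 transcripts, called at an adjusted p under 0.05. Standard errors were derived from the F statistic. Log2 CPM used a prior count of 2. Library measures were compared by an exact permutation test over 12870 splits into 8 and 8 libraries. Scripts were tested on simulated data. Replicates differed by more than sampling noise, and all were kept as separate libraries. Floors of counts cover counting error only.

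Egg-enriched and embryo-enriched transcripts had a log2 difference of 3 or more between the means of 8 egg and 16 embryo libraries and 2 CPM or more in the higher stage. Named transcripts were, in each direction, the call of largest interaction at 2 CPM or more and the most abundant by TPM, and for each sign and each farthest cross the call of smallest p. Rules, classes and named transcripts were chosen with earlier results of these data known. Lists by gene symbol (AHR pathway, DNA damage, DNA methylation, stage markers) could not be computed, since 0 of 57192 identifiers matched the reference tables. Alternatives were other scalings, filters, DESeq2 1.42.0, limma 3.58.1, a replicate block, length correction and leaving out each library. Bisulfite samples were not analysed here.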

Additional observations from a re-analysis of the deposited data

Results flagged for a closer look

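Outliers were looked for with Dixon's test in 88 groups of 4 libraries, of which chance flags about 5%. In the both-parents cross, replicate 2 was far from the other 3 in the share of counts in egg-enriched transcripts (gap 0.922 of the range), replicate 3 in the share of transcripts longer than 5000 bases (0.908) and 1 library in the share of the 100 most abundant transcripts (0.855). In the father cross, replicate 3 was far below the others in CPM of ENSDART00000004622.9 (0.861).

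A difference between the effects of 1 parent under the 2 diets of the other is what the interaction tests. Named transcripts were chosen among those that passed that test (edgeR quasi-likelihood test, adjusted p under 0.05), so their passing was fixed by the choice. The interactions of named transcripts of at least 2 CPM were 2.71 for ENSDART00000180271.1, 1.05 for ENSDART00000182735.1, 1.43 for ENSDART00000189361.1, 1.40 for ENSDART00000121994.3 and 1.12 for ENSDART00000142024.2 (log2). The negative ones were -1.49 for ENSDART00000027213.8, -0.57 for ENSDART00000004622.9, -0.53 for ENSDART00000063665.7, -0.53 for ENSDART00000062303.5, -0.44 for ENSDART00000123990.4 and -0.41 for ENSDART00000018255.8. The transcripts with no count in the father cross had fitted values of 8.81 (ENSDART00000187324.1), 8.21 (ENSDART00000158160.2), 9.45 (ENSDART00000184842.1) and 15.56 (ENSDART00000166902.2), which depend on the constant added to counts and are no measure of size.

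Of the library measures, the number of transcripts with a count (723 more in control and both-parents libraries than in single-parent ones) and the share of counts in transcripts longer than 5000 bases (0.938 percentage points more) passed the exact permutation test after adjustment.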

How the results depend on the processing

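Of the 278 calls none changed sign in any alternative that gave it a value, which was all 278 except 264 with the stricter filter and 9 in whole-count transcripts. The calls were selected for an interaction large relative to its error in these same libraries, which makes a change of sign unlikely. The share over all transcripts tested was not counted. Against 254 positive and 24 negative calls there were 144 and 7 with no filter, 134 and 10 with a replicate block, 497 and 6 with library totals alone, 729 and 331 with DESeq2, 22 and 10 with the length trend removed, 120 and 22 with that trend centred, and 2 and 2 in whole-count transcripts. Leaving out 1 library gave 85 (without replicate 2 of the mother cross) to 388 positive and 4 to 43 (without replicate 3 of the father cross) negative calls. All but 1 leave-out moved the positive count by over 1.5 times, 14 of them downward, and each has fewer libraries. Positive calls with the father cross farthest (235) numbered 135 with no filter, 130 with the replicate block, 438 with totals alone, 587 with DESeq2, 2 in whole-count transcripts and 83 to 341 in leave-outs. Father against the rest (226 higher, 622 lower) gave 118 and 406 with no filter, 43 and 1083 with totals alone, 761 and 1310 with DESeq2, and 27 to 386 and 205 to 770 in leave-outs. Both-parents against the rest (144 and 60) gave 56 and 16 with no filter, 307 higher with a stricter filter, 67 and 31 with the block, 565 and 21 with totals alone, 695 and 773 with DESeq2, and 2 to 239 and 0 to 112 in leave-outs. Control calls (0) were 19 higher and 70 lower with DESeq2 and 0 to 1 lower in leave-outs. Mother-cross calls (0) were 1 higher with no filter, 8 and 25 with DESeq2 and 0 to 2 higher in leave-outs. The cause of these moves was not tested.

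The numbers shared by replicates are not documented as pairs: 24 same-number pairs had correlations of -0.073 to 0.101 and 4 of 16 libraries correlated best with their own number. Leaving out 1 library, differences ran from -596673 to 818151 in total counts, 639.5 to 886 in transcripts with a count, -0.0625 to 0.0452 points in the egg-enriched share (-0.0049 as log2), -0.215 to 0.284 in the embryo-enriched share, 0.797 to 1.09 in the long share (1.12 and no longer past the threshold above 3000 bases), -0.726 to -0.457 in the top 100 and -0.113 to 0.0536 in whole-count transcripts. ENSDART00000182735.1, ENSDART00000189361.1 and ENSDART00000187324.1 kept their call in every alternative that gave them a value. The negative calls ENSDART00000018255.8, ENSDART00000062303.5 and ENSDART00000063665.7 lost it in 19, 19 and 20 alternatives.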
